A study of Mus musculus with 12 samples.

Results

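The core transcription factors of the heart lineage were followed through total and ribosome-bound RNA of adult mouse hearts with and without Rpl3l. The group holds 10 genes chosen by name for their role in heart development: the zinc finger factors Gata4 and Gata6, the homeobox factor Nkx2-5, the T-box factors Tbx5 and Tbx20, the MADS-box factors Mef2a, Mef2c, Mef2d and Srf, and the basic helix-loop-helix factor Hand2. All 10 were found among the 55401 gene IDs of each count table, of which 16598 had at least 1 count. A total of 9 members were abundant enough to be tested, and Hand2 was too low.

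The study compared WT hearts with hearts of Rpl3l-/- mice (KO), which lack a striated muscle paralog of the ribosomal protein gene Rpl3. Each genotype was measured as Input, the poly(A) RNA of whole heart homogenate, and as IP, the poly(A) RNA that came down with ribosomes on an antibody against the HA tag (Nano-TRAP, a form of translating ribosome affinity purification read on nanopores). There were 3 biological replicates in each of the 4 groups, 12 libraries in all. WT Input and KO Input RNA was extracted with TRIzol from adult hearts. WT IP and KO IP hearts were treated with cycloheximide, which stalls ribosomes, when they were excised, and their RNA was purified on RNeasy columns, so that extraction method and fraction cannot be told apart. The labels give no age beyond adult and no sex or strain, and they do not say which cells carry the tag or whether an Input and an IP library came from the same heart.

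These factors bind DNA side by side at the control regions of heart muscle genes, and several of them bind each other. GATA4, NKX2-5 and TBX5 act together in heart formation and go on being made in the adult heart. MEF2 proteins and SRF are related MADS-box factors that couple muscle genes to calcium and stress signals and to the state of the actin cytoskeleton. Myocardin is a muscle cofactor of SRF.

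Short stretches of promoter are shown for the members whose 300-base window around a RefSeq start site (250 bases before it and 50 after, GRCm38.p6) held a motif of a factor within the group, since SRF, MEF2 and GATA sites near these genes are where members can bind each other's promoters. Of the 10 members, 7 matched a promoter in the table, with 9 windows in all. Gata4, Gata6 and Tbx5 were not among them. Capitals mark the motif in each sequence, which is written 5′ to 3′ on the strand of the gene. The first is the Srf promoter (chr17:46556205-46556254, minus strand) with 2 CArG boxes, the SRF site. The second is the Mef2a start region (chr7:67372841-67372870, minus strand) with a MEF2 box, and the third is the Hand2 promoter (chr8:57320758-57320826, plus strand) with 2 GATA motifs.
Srf: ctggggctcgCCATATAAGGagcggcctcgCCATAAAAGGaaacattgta
Mef2a: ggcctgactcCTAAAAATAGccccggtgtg
Hand2: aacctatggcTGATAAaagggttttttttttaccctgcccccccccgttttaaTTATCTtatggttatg
The Srf boxes begin 82 and 62 bases before the start site, the Mef2a box begins 2 bases before it, and the Hand2 motifs begin 215 and 172 bases before it. A CArG box was taken as CC, then 6 letters that are each A or T, then GG. A MEF2 box was CTA, then 4 letters that are each A or T, then TAG. A GATA motif was AGATAA or TGATAA, and an NKX site was TNAAGTG. Both strands were searched, a match that reads the same on both was counted once, and no match in these 3 promoters overlapped a match of another motif. Of 32851 mouse promoter windows of the same length, 535 (1.63%) held at least 1 CArG box and 6 (0.0183%) held 2 or more. A MEF2 box was in 183 windows (0.557%), at least 1 GATA motif in 6115 (18.6%), 2 or more in 1071 (3.26%), and an NKX site in 3790 (11.5%). No match of these 4 motifs was found in the windows of Mef2d, Tbx20, Mef2c and Nkx2-5. A match describes the letters only, and no binding was measured here.

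The library totals ran from 169359 counts (KO Input replicate 3) to 710868, with 10311 to 12576 genes detected, and 3 counts in a library correspond to between 4.22 and 17.7 CPM, the count scaled to a common library size. Levels below are CPM scaled by the trimmed mean of M values (TMM), given as mean ± SD of the 3 libraries of a group unless single libraries are named, and an exact 95% interval of a pooled count covers counting error only. Globin transcripts took 17.3% of the counts of WT IP replicate 2 and 13.8% of WT Input replicate 3, against 1.70% to 6.98% in the other 10 libraries, and the calls below were repeated without those 2 libraries. Rpl3l itself checks the genotype labels: it stood at 222, 308 and 279 CPM in WT Input and 68.5, 27.0 and 51.1 CPM in KO Input, and at 269, 271 and 275 CPM in WT IP and 2.33, 2.62 and 8.31 CPM in KO IP. Some reads thus remained in KO, more in Input (18, 7 and 9 counts) than in IP (1, 2 and 5 counts), and their source was not tested. The defining markers of heart muscle were high in every library, with a summed level of 61822 to 73322 CPM over the 12 genes listed, of which Actc1 is listed at 0.

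Apart from Hand2, the members gave a middling number of reads. Their mean CPM over the 12 libraries lay between the 44.1 percentile (Tbx5) and the 84.5 percentile (Mef2a) of the 6596 genes tested. That mean was 68.8 CPM for Gata4, 52.5 for Gata6, 91.1 for Nkx2-5, 39.9 for Tbx5, 98.0 for Tbx20, 142.5 for Mef2a, 66.6 for Mef2c, 99.2 for Mef2d, 68.0 for Srf and 9.61 for Hand2. The order between genes depended on the unit. In CPM, Mef2a came first over all libraries and in each of the 4 groups. Mef2d, Tbx20 and Nkx2-5 followed it over all libraries and were not separated beyond the SD of their libraries. Each count is a nanopore read, so dividing by length can place short transcripts too high. Per kilobase of the longest annotated transcript, Nkx2-5 came first at 59.7 CPM per kb, followed by Srf (26.0), Mef2a (25.7), Gata4 (20.2), Mef2d (18.4), Gata6 (16.2), Tbx20 (10.8), Mef2c (10.6), Tbx5 (10.1) and Hand2 (4.09), as means over Input and IP together. The place of Srf depended on the fraction: it was the sixth in WT Input (11.7 CPM per kb, below Nkx2-5, Mef2a, Gata4, Gata6 and Mef2d), the fourth in KO Input (16.3) and the second in WT IP (38.1) and KO IP (37.8). Per kilobase, Nkx2-5 was the first in each of the 4 groups, and Hand2 was the last in each in either unit. In the order per kilobase over all libraries, neighbours were not separated beyond the SD of their libraries within 3 runs. These were Srf and Mef2a, then Gata4, Mef2d and Gata6, then Tbx20, Mef2c and Tbx5. In that order Nkx2-5 lay above the first run and Hand2 below the last by more than the SD of either neighbour. Nkx2-5 has the shortest transcript of the group (1525 bp) and Tbx20 the longest (9091 bp).

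**Figure D1:**
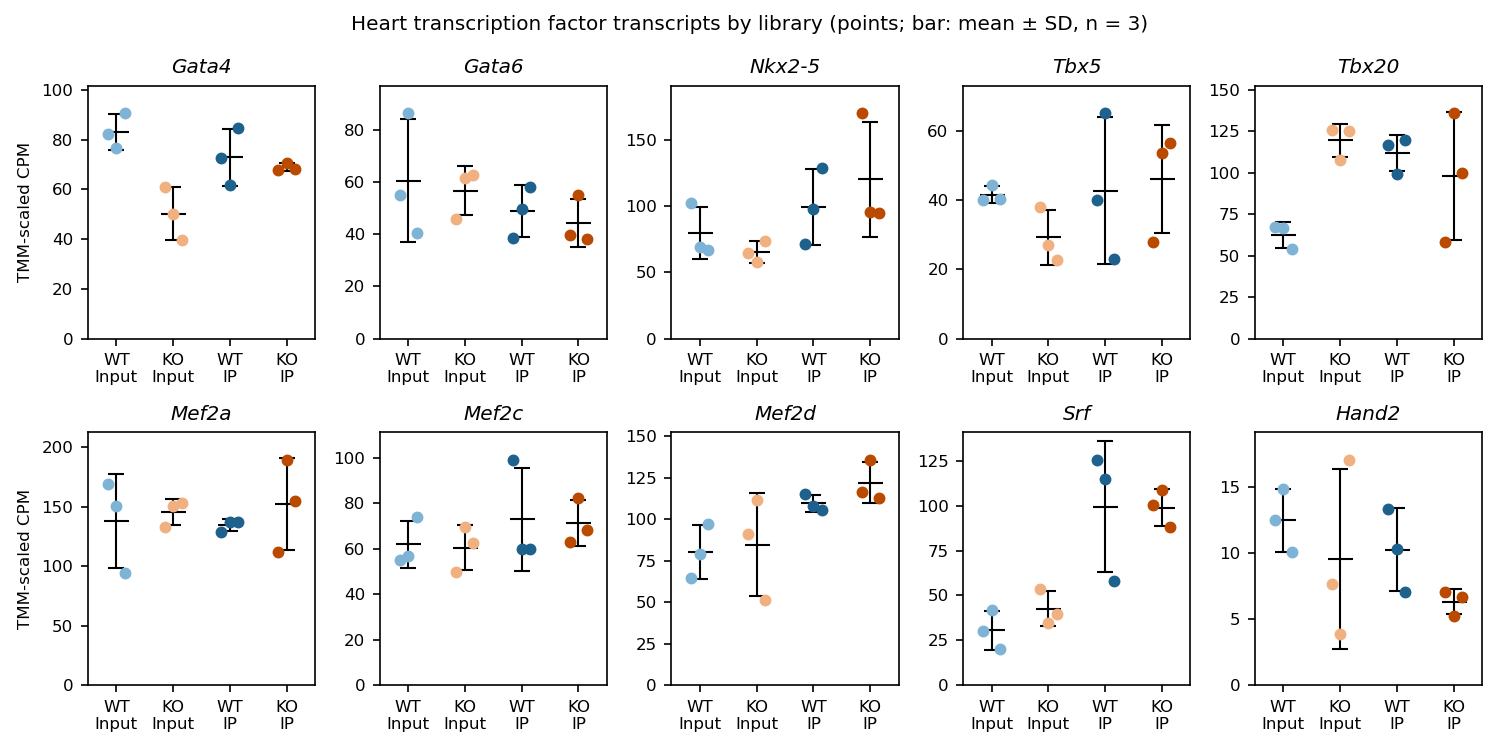
TMM-scaled CPM of each of the 10 transcription factors in the 12 libraries, by group (WT Input, KO Input, WT IP, KO IP), with every vertical axis starting at 0 and its own range. Points are libraries and bars are mean ± SD (n = 3); Srf lies at 20.2 to 53.3 CPM in the 6 Input libraries and 58.1 to 125.8 CPM in the 6 IP libraries, and Hand2 is at 17.0 CPM or less in all 12.

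The comparison of IP with Input asks which transcripts make up a larger share of ribosome-bound RNA than of total RNA. Srf, the serum response factor, was the member that stood furthest above total RNA: its level was 2.70-fold higher in IP over both genotypes, 3.17-fold in WT and 2.30-fold in KO. Over both genotypes Nkx2-5 (1.49-fold) and Mef2d (1.39-fold) were also higher in IP, and in WT Tbx20 was (1.77-fold). The other tested members, Gata4, Gata6, Tbx5, Mef2a and Mef2c, did not pass the test in any of these comparisons. No member was lower in IP by the test. Members higher in IP at an adjusted p under 0.05 (edgeR's quasi-likelihood test) numbered 2 of 9 in WT, where 5.37% of all tested genes were higher and 14.0% passed in either direction. In KO they numbered 1 of 9, where 6.64% of genes were higher and 16.4% passed either way. Over both genotypes they numbered 3 of 9, beside 13.5% of genes higher and 29.2% passing either way. The median log2 difference of the 9 members was 0.27 in WT, 0.43 in KO and 0.29 over both, where that of all genes was 0.02, 0.01 and 0.02. The comparison over both genotypes uses the same libraries as the WT and KO ones and is no further evidence beside them. In bulk hearts, fewer cells of a type and less RNA per cell cannot be told apart.

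Srf (chromosome 17, 46548329 to 46556175, minus strand, GRCm38) was at 29.9, 41.9 and 20.2 CPM in the WT Input libraries and at 53.3, 34.7 and 39.8 CPM in KO Input. In IP it was at 125.8, 114.8 and 58.1 CPM in WT and 100.3, 108.6 and 88.1 CPM in KO. Every one of the 6 IP libraries lay above every one of the 6 Input libraries, and the lowest IP library was WT IP replicate 3. The counts behind these levels were small in Input, 6 to 17 a library, and 33 to 85 in IP. The log2 difference over both genotypes was 1.43 (SE 0.23, 95% interval 0.98 to 1.89, edgeR adjusted p 4.31e-05). The difference was 1.66 in WT (SE 0.32, adjusted p 0.000763) and 1.20 in KO (SE 0.34, adjusted p 0.0146). The CArG box, shown above in the Srf promoter, is the sequence that SRF protein itself recognises. Without KO Input replicate 2 the KO difference was 1.06 with an adjusted p of 0.0894 by edgeR, while the WT difference and the one over both genotypes passed in every alternative run, including without the 2 globin-rich libraries (1.38 with adjusted p 0.0294 in WT).

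Nkx2-5 (chromosome 17, 26838664 to 26845009, minus strand) is a homeobox factor related to the fly gene tinman. It was at 102.2, 69.0 and 67.2 CPM in WT Input and 64.7, 57.8 and 73.9 CPM in KO Input. In IP it was at 71.1, 97.7 and 128.5 CPM in WT and 170.3, 95.5 and 94.7 CPM in KO. The 3 KO IP libraries lay above the 3 KO Input libraries, while the WT groups overlapped. The log2 difference was 0.58 over both genotypes (SE 0.21, 95% interval 0.17 to 0.98, edgeR adjusted p 0.0376), 0.30 in WT (SE 0.28) and 0.86 in KO (SE 0.31, adjusted p 0.0580). The call held in 11 of 22 alternative fits over both genotypes, and without WT IP replicate 3 its edgeR adjusted p was 0.105.

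Mef2d (chromosome 3, 88142372 to 88172086, plus strand), a MEF2 factor known from stress-driven remodelling of the heart, was at 64.8, 78.9 and 97.4 CPM in WT Input and 91.4, 111.7 and 51.1 CPM in KO Input. Its IP libraries were tight, at 115.5, 107.9 and 105.6 CPM in WT and 116.7, 136.0 and 113.0 CPM in KO. IP and Input did not overlap within either genotype, and 1 KO Input library (111.7 CPM) exceeded 2 WT IP libraries across genotypes. The log2 difference over both genotypes was 0.47 (SE 0.17, 95% interval 0.14 to 0.81, edgeR adjusted p 0.0371), with 0.47 in WT and 0.48 in KO, neither of which passed (adjusted p 0.194 in each). It held in 14 of 22 alternative fits, and without WT Input replicate 1 the adjusted p was 0.113.

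Tbx20 (chromosome 9, 24718138 to 24774303, minus strand), a T-box factor needed for the upkeep of adult heart muscle, was at 67.3, 66.6 and 53.7 CPM in WT Input and 116.9, 99.4 and 119.7 CPM in WT IP. These libraries did not overlap, and the log2 difference in WT was 0.83 (SE 0.26, edgeR adjusted p 0.0343). In KO it was at 125.7, 107.9 and 125.0 CPM in Input and 58.3, 136.0 and 99.7 CPM in IP, which overlapped, with a log2 difference of -0.24 (SE 0.26, adjusted p 0.584). The WT call held in 9 of 17 alternative fits and was lost when libraries were thinned to the smallest total (adjusted p 0.201) or the 2 globin-rich libraries were left out (0.128).

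The remaining tested members gave log2 differences over both genotypes of 0.35 (Tbx5), 0.26 (Mef2c), 0.12 (Gata4), 0.02 (Mef2a) and -0.33 (Gata6), with edgeR adjusted p from 0.294 to 0.952. Gata6 (chromosome 18, 11052064 to 11085635, plus strand), the second GATA factor of the heart, had a 95% interval of -0.78 to 0.12, with 40.3 to 86.3 CPM in Input and 38.2 to 58.1 CPM in IP. Mef2c (chromosome 13, 83504034 to 83667080, plus strand), the MEF2 factor of the early heart field, ran from 49.5 to 73.9 CPM in Input and from 59.9 to 99.2 CPM in IP. In both genes the fractions overlapped. Mef2a (chromosome 7, 67231163 to 67372858, minus strand), the member with the most counts, had the narrowest interval, -0.29 to 0.32, and ran from 94.0 to 169.5 CPM in Input and 112.0 to 189.7 CPM in IP. Mef2a shares exon sequence on the opposite strand with Lysmd4, which held 116 counts over the 12 libraries against 789 for Mef2a, 26 of them in Input and 90 in IP. Use of strand in the counting is not stated, so reads of the overlap cannot be told apart. Opposite-strand noncoding genes that share exon sequence with Gata6, Mef2d and Hand2 are listed at 0.

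The libraries of the groups did not overlap, IP above Input, for 3 of 9 members in WT (Tbx20, Mef2d and Srf) and for 4 in KO (Gata4, Nkx2-5, Mef2d and Srf). Genes with IP above Input in this way made up 16.4% of all tested genes in WT and 15.2% in KO, and those of either direction 34.6% and 30.8%. With the genotypes joined, 6 libraries against 6, only Srf did not overlap among the members, beside 5.23% of all genes with IP above Input and 12.2% in either direction. Summed over the 10 members, the level was 650.4 ± 54.4 CPM in WT Input and 664 ± 14.2 CPM in KO Input, and 802 ± 19.9 CPM in WT IP and 828 ± 91.6 CPM in KO IP. All 6 IP libraries (763 to 933 CPM) lay above all 6 Input libraries (588 to 686 CPM). The sum leans on a few members and is no trait of each. Over both genotypes Srf rose from a mean of 36.6 to 99.3 CPM, Nkx2-5 from 72.5 to 109.6 and Mef2d from 82.6 to 115.8. Mef2a was at 141.8 and 143.2 CPM, and Gata6, the 1 tested member with a log2 difference below 0, at 58.5 and 46.5 CPM.

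**Figure D2:**
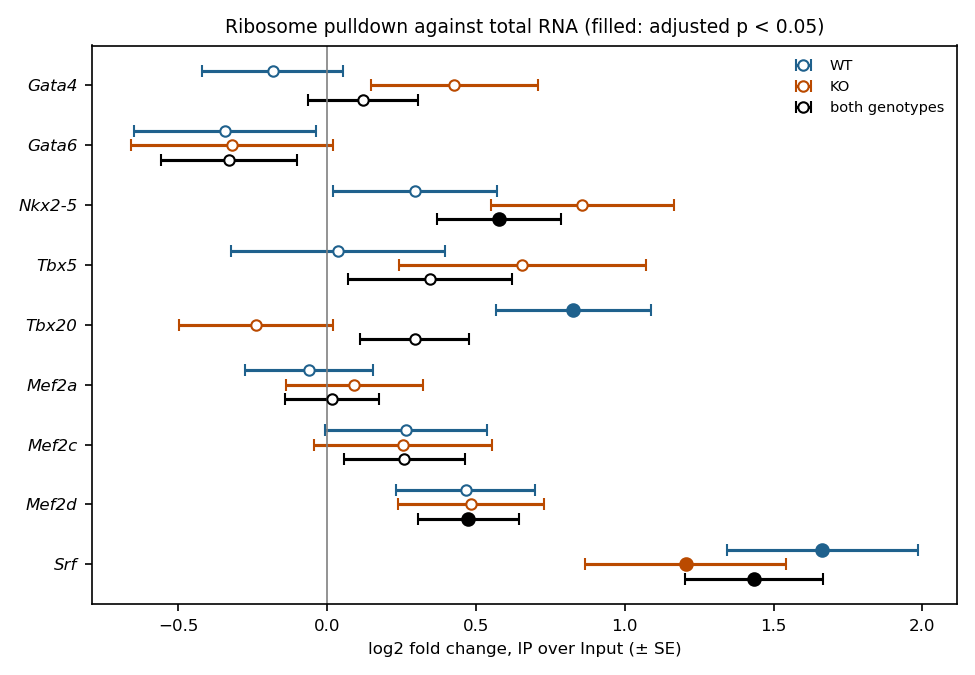
The log2 difference of IP over Input (horizontal axis, ± SE from edgeR) for the 9 tested members in WT, KO and both genotypes. Filled points passed an adjusted p of 0.05: Srf in all 3 comparisons (1.66, 1.20 and 1.43), Tbx20 in WT (0.83), and Nkx2-5 (0.58) and Mef2d (0.47) over both genotypes.

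The makeup of the libraries also moved with the fraction. The summed level of 6 atrial muscle markers (Myl7, Myl4, Sln, Nppa, Bmp10, Dkk3) was 6802 to 11902 CPM in the Input libraries and 329 to 1123 CPM in IP, and all 6 were lower in IP by the test in WT and in KO. Heart muscle markers as a whole were level, 62421 to 73322 CPM in Input and 61822 to 72679 CPM in IP. Smooth muscle and pericyte markers, from cells in which SRF is also active, summed to 828 to 1039.9 CPM in Input and 896 to 1173 CPM in IP. Fibroblast markers, with Tcf21 listed at 0, summed to 3161 to 4139 CPM and 3375 to 4907 CPM, and endothelial markers, with Cav1 listed at 0, to 2464 to 3756 CPM and 1884 to 2481 CPM. Macrophage markers summed to 530 to 944 CPM in Input and 668 to 901 CPM in IP, adipocyte markers to 136 to 554 CPM and 13.7 to 54.6 CPM, and epicardial markers to 27.1 to 100.8 CPM and 5.92 to 70.0 CPM. The part of these differences in the members' values was not tested.

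The IP to Input difference also ran with transcript length over all tested genes. Its median over both genotypes was -0.55 for 535 genes with a longest transcript of up to 1000 bp and -0.19 for 1339 genes of 1000 to 2000 bp. It was -0.01 for 1286 genes of 2000 to 3000 bp, 0.07 for 1087 genes of 3000 to 4000 bp and 0.18 for 1345 genes of 4000 to 6000 bp. The median was 0.32 for 720 genes of 6000 to 9000 bp and 0.27 for 279 genes over 9000 bp. Srf, at 2616 bp, and Nkx2-5, at 1525 bp, stood above genes of their length, and after a smooth trend on length was subtracted their values were 1.48 and 0.83. Mef2d (5401 bp) went from 0.47 to 0.27 by that subtraction, Mef2a (5538 bp) from 0.02 to -0.20, and Tbx20 from 0.29 to 0.00 over both genotypes and from 0.83 to 0.62 in WT. No adjusted p was computed for these corrected values.

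**Figure D3:**
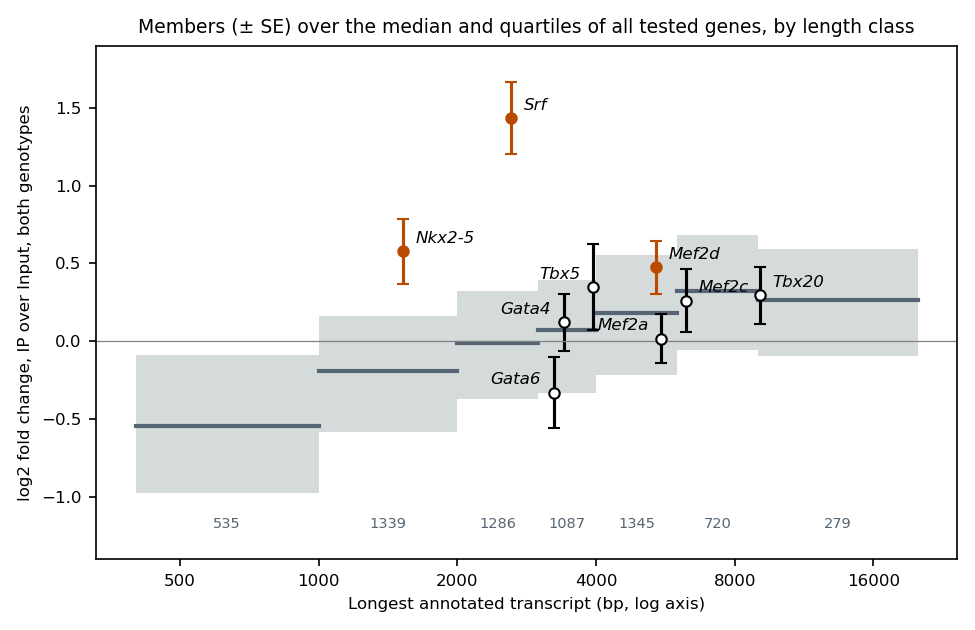
The log2 difference of IP over Input over both genotypes against the longest annotated transcript (log axis, bp). Shaded boxes and lines are the quartiles and the median of all tested genes in each length class with the number of genes written under them, points are members ± SE, and filled points passed an adjusted p of 0.05. Srf (1.43) and Nkx2-5 (0.58) lie above the boxes of their classes, and Mef2a (0.02) and Gata6 (-0.33) lie below the medians of theirs.

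The comparison of KO with WT asks which transcripts differ when Rpl3l is missing. None of the 9 tested members passed the test in total RNA or on ribosomes. In Input 2 members had an unadjusted p under 0.05, Tbx20 at 1.88-fold higher in KO and Gata4 at 1.61-fold lower, but 469 of the 6596 genes did so too, 7.11% of them. After adjustment 0.182% of genes passed in Input and 0.0910% in IP, so few calls were made anywhere. In IP, where 343 genes had an unadjusted p under 0.05, no member did. The median log2 difference of the members was -0.02 in Input and -0.01 in IP, beside -0.01 and 0.00 for all genes. DESeq2 and limma-voom called no member in either fraction. Some cell type markers lay to 1 side between genotypes in Input without passing: all 6 tested atrial markers were above 0 (median 0.37) and all 6 tested erythroid markers below 0 (median -1.10). The summed atrial level was 6802 to 8833 CPM in WT Input and 8262 to 11902 CPM in KO Input, and the erythroid one 18303 to 165839.9 CPM and 16752 to 47648 CPM. Their part in the differences between genotypes, those of the target lists below included, was not tested.

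Tbx20 in Input was at 62.5 ± 7.63 CPM in WT and 119.5 ± 10.1 CPM in KO. The 3 KO libraries (107.9 to 125.7 CPM) lay above the 3 WT libraries (53.7 to 67.3 CPM). The log2 difference was 0.91 (SE 0.29, 95% interval 0.35 to 1.48), with an unadjusted p of 0.00395 and an edgeR adjusted p of 0.414. No alternative fit brought the adjusted p under 0.05, the range being 0.296 to 0.794, while the difference itself stayed between 0.79 and 0.98. On ribosomes Tbx20 was at 112.0 ± 11.0 CPM in WT and 98.0 ± 38.9 CPM in KO, a difference of -0.15 (SE 0.23, adjusted p 0.988).

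Gata4 (chromosome 14, 63198922 to 63271692, minus strand), the GATA factor that partners NKX2-5 and TBX5 at heart genes, was at 82.3, 76.4 and 90.7 CPM in WT Input and 60.9, 50.1 and 39.8 CPM in KO Input. These libraries did not overlap, and the log2 difference was -0.69 (SE 0.29, 95% interval -1.25 to -0.13, unadjusted p 0.0239, edgeR adjusted p 0.639). The KO Input levels rest on 16, 13 and 7 counts. On ribosomes it was at 72.5, 61.7 and 84.5 CPM in WT and 67.7, 70.6 and 68.1 CPM in KO, a difference of -0.08 (SE 0.23), so the KO libraries lay within the WT range.

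Tbx5 (chromosome 5, 119832668 to 119885219, plus strand), the T-box factor mutated in Holt-Oram syndrome, was at 39.9, 44.4 and 40.3 CPM in WT Input and 38.1, 27.0 and 22.7 CPM in KO Input. All 3 KO libraries were below all 3 WT libraries, with a log2 difference of -0.47 (SE 0.44, edgeR adjusted p 0.863) and only 4 to 10 counts in each KO library. In IP it was at 40.0, 65.1 and 22.9 CPM in WT and 28.0, 53.6 and 56.5 CPM in KO, with the genotypes overlapping. Non-overlapping libraries in Input were thus seen for 3 of 9 members, Tbx20, Gata4 and Tbx5, beside 12.4% of all tested genes in either direction. In IP they were seen for 0 of 9, beside 10.8%.

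The other tested members were closer to level between genotypes. In Input, Srf differed by 0.45 (SE 0.41, 95% interval -0.36 to 1.25), Nkx2-5 by -0.31 (SE 0.33), Mef2d by 0.14 (SE 0.27), Gata6 by -0.13 (SE 0.34), Mef2a by 0.05 (SE 0.24) and Mef2c by -0.02 (SE 0.32) on the log2 scale. On ribosomes the largest was Nkx2-5 at 0.25 (SE 0.25, 95% interval -0.24 to 0.75), followed by Mef2a at 0.20 (SE 0.20). The Srf difference on ribosomes was -0.01 (SE 0.26, 95% interval -0.52 to 0.49), with 99.6 ± 36.3 CPM in WT and 99.0 ± 10.3 CPM in KO. Intervals of this width do not show that the genotypes are equal.

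**Figure D4:**
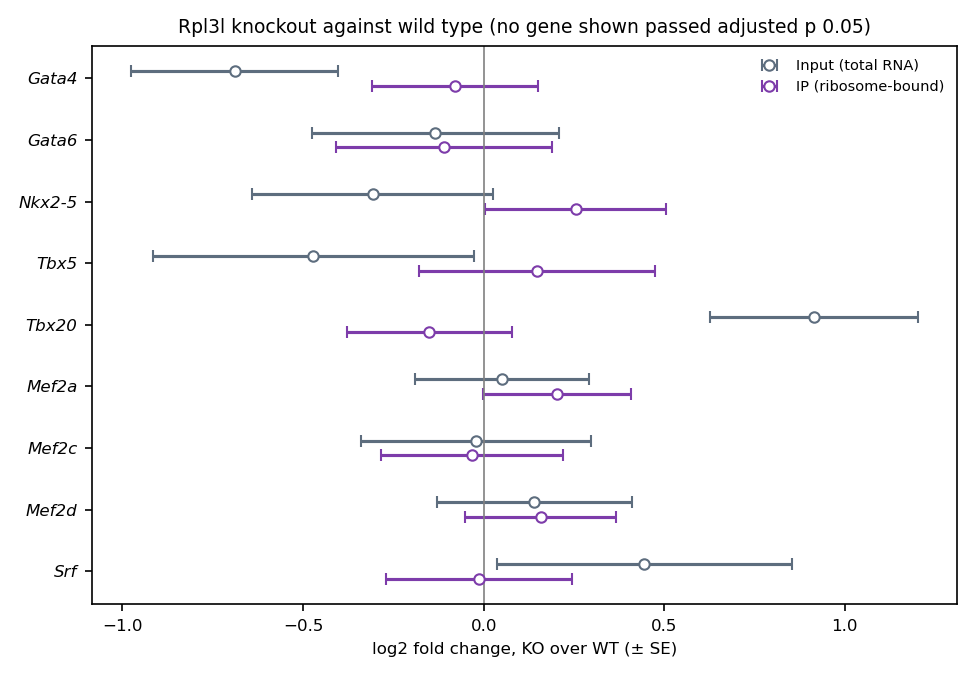
The log2 difference of KO over WT (horizontal axis, ± SE from edgeR) for the 9 tested members in Input and in IP. No point passed an adjusted p of 0.05; Tbx20 (0.91) and Gata4 (-0.69) lie furthest from 0 in Input, and the IP values run from -0.15 (Tbx20) to 0.25 (Nkx2-5).

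Hand2 (chromosome 8, 57320983 to 57324633, plus strand), best known from the right ventricle of the embryo, was at the edge of detection. Its counts were 5, 6 and 3 in the WT Input libraries and 2, 1 and 3 in KO Input, and 9, 6 and 4 in WT IP and 3, 4 and 4 in KO IP. Pooled by group this is 14 counts or 11.4 CPM of the pooled totals in WT Input (exact 95% Poisson interval 6.25 to 19.2) and 6 counts or 8.0 CPM in KO Input (2.94 to 17.4). In IP it is 19 counts or 9.94 CPM in WT (5.98 to 15.5) and 11 counts or 6.38 CPM in KO (3.18 to 11.4). All 4 intervals overlap, and no difference was detectable at this depth. With the count filter dropped, the log2 difference of KO against WT was -0.55 in Input (SE 0.85) and -0.72 in IP (SE 0.72), and that of IP against Input over both genotypes was -0.29 (SE 0.56).

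Whether the IP to Input difference itself changed with genotype was tested as an interaction. No member passed, beside 0.0910% of all genes. Tbx20 was the 1 member with an unadjusted p under 0.05 (463 genes had one): its IP to Input log2 difference was lower in KO than in WT by 1.06, an interaction of -1.06 (SE 0.37, 95% interval -1.79 to -0.34, unadjusted p 0.00783, edgeR adjusted p 0.530). This is the same set of values as above, in which KO Input, WT IP and the mean of KO IP were close to each other and WT Input was lower. For Srf the interaction was -0.46 (SE 0.48), for Gata4 0.61 (SE 0.37), for Tbx5 0.62 (SE 0.55) and for Nkx2-5 0.56 (SE 0.42), none of which passed.

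Within each family the balance of its members was taken as a share of counts per library, which does not depend on library scaling. Mef2a made up 48.9% ± 12.0 of the MEF2 counts (Mef2a, Mef2c and Mef2d) in WT Input and 50.5% ± 6.26 in KO Input, and 42.6% ± 4.42 in WT IP and 43.6% ± 4.54 in KO IP. Mef2d made up 28.9% ± 7.24 and 28.7% ± 8.30 in Input, and 34.6% ± 0.913 and 35.7% ± 3.76 in IP. The IP to Input shift of -6.56 percentage points for Mef2a had a two-sided exact permutation p of 0.145 (libraries permuted within genotype, 400 arrangements), and the shift of 6.33 points for Mef2d one of 0.115. After adjustment over the 5 shares tested both were 0.25 by the exact permutation test. The family's coding sequences can be told apart by long reads: the aligned coding bases were 69.0% identical between Mef2a and Mef2c, 65.1% between Mef2a and Mef2d and 67.3% between Mef2c and Mef2d, and the longest identical run was 28 bases.

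Gata4 made up 58.7% ± 11.2 of the Gata4 and Gata6 counts in WT Input, 47.0% ± 9.31 in KO Input, 60.0% ± 5.01 in WT IP and 61.1% ± 4.25 in KO IP, and the 4 groups overlapped. The coding sequences of this pair were 70.8% identical with a longest run of 18 bases. Tbx20 made up 60.0% ± 2.82 of the Tbx5 and Tbx20 counts in WT Input and 80.5% ± 3.96 in KO Input, where the libraries (57.1% to 62.8% and 76.7% to 84.6%) did not overlap. In IP it made up 73.0% ± 11.8 in WT and 67.7% ± 3.95 in KO, which did. The IP to Input shift of Tbx20 over both genotypes was 0.12 points (two-sided exact permutation p 0.985). The KO against WT shift in Input was not tested, since 3 libraries against 3 cannot give a p under 0.10 in an exact permutation test.

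**Figure D5:**
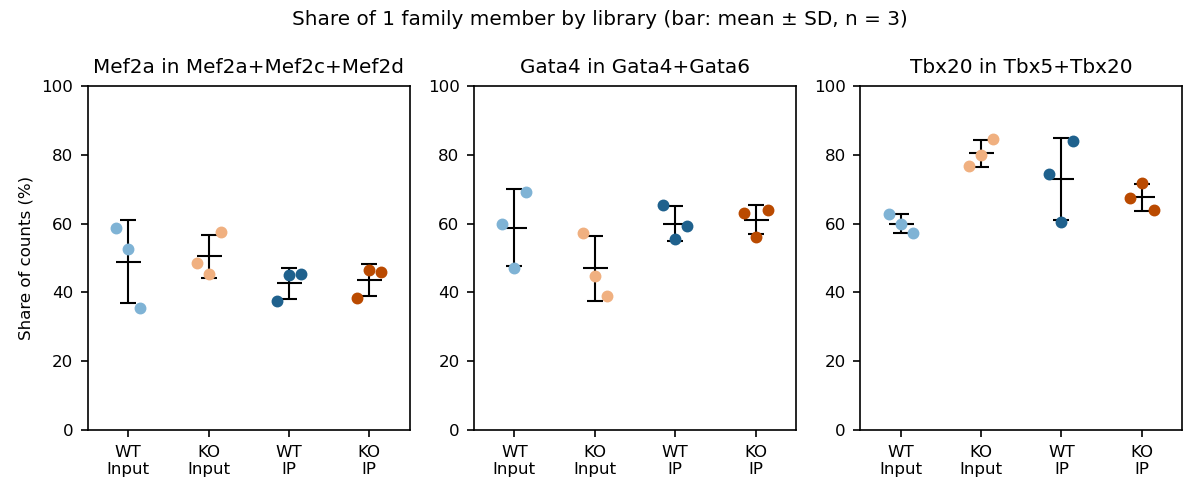
The share of 1 member in the counts of its family (vertical axis, percent) for each library, by group, with mean ± SD (n = 3). The share of Tbx20 in Tbx5 and Tbx20 is 57.1% to 62.8% in WT Input and 76.7% to 84.6% in KO Input, and the Mef2a and Gata4 shares overlap between groups.

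Cofactors and other heart transcription regulators, a list of 50 genes of which 24 were tested, passed in 1 direction only. In IP against Input, 4 were higher and 0 lower in WT, 5 and 0 in KO, and 7 and 0 over both genotypes, beside 5.37%, 6.64% and 13.5% of all tested genes higher in IP, with a median of 0.37 over both beside 0.02 for all genes. Smyd1, a muscle methyltransferase gene regulated by SRF and MEF2 factors, was at 319 ± 46.5 CPM in WT Input and 589 ± 40.6 CPM in WT IP, a log2 difference of 0.88 in WT and 1.38 in KO (SE 0.16 and 0.18, edgeR adjusted p 0.000548 and 4.27e-06). Foxp1, a forkhead repressor, was higher by 1.53 in WT and 1.74 in KO (SE 0.35 and 0.38). It rests on only 2 to 7 counts in each Input library. Tead1, the DNA-binding partner of YAP, was higher by 0.88 in each genotype. Prox1, a homeobox factor, passed in WT (0.89, edgeR adjusted p 0.0164) and not in KO (0.33, adjusted p 0.446). By edgeR no gene of this list passed between genotypes or in the interaction, where 2 had an unadjusted p under 0.05 in Input, 1 in IP and 2 in the interaction, and 2 of its members, Isl1 and Tcf21, are listed at 0.

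Myocd, which encodes myocardin, the muscle cofactor of SRF, had the smallest p of that list in both KO against WT comparisons without passing either. It was at 39.9, 81.4 and 23.5 CPM in WT Input. In KO Input it was at 26.7, 7.7 and 0 CPM, on only 7, 2 and 0 counts, and the lowest library is also the shallowest. On ribosomes it was at 41.4, 18.8 and 59.9 CPM in WT and 39.7, 95.5 and 136.3 CPM in KO. The KO against WT log2 difference was -1.94 in Input (SE 0.70, edgeR adjusted p 0.526) and 1.20 in IP (SE 0.42, adjusted p 0.827). IP against Input passed in KO (2.83, SE 0.63, adjusted p 0.00263) and not in WT (-0.31, SE 0.48, adjusted p 0.720), and the interaction of 3.14 (SE 0.82) had an adjusted p of 0.247.

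Textbook targets of the members were divided. Of 41 tested heart muscle targets, 8 were higher and 6 lower in IP in WT, and 7 were higher and 8 lower in KO, with medians of -0.02 and 0.05. Smyd1 is on this list as well as that of the cofactors, and its calls are counted in both. Of all tested genes, 14.0% passed in WT and 16.4% in KO, with 5.37% and 6.64% higher in IP. The lower ones were led by Nppa, the gene for atrial natriuretic peptide (log2 difference -3.72 in WT and -4.86 in KO), and Myl7, the atrial light chain (-3.07 and -3.14), both of which belong to the atrial markers given above. Among those higher in WT were Hspb7, a small heat shock protein gene (1.32), and Mybpc3, cardiac myosin-binding protein C (1.14). Between genotypes 0 of 41 passed in Input by edgeR, with 5 at an unadjusted p under 0.05, and in IP 1 did: Ankrd1, a stress-responsive muscle ankyrin repeat gene, fell by 1.08 (SE 0.20, edgeR adjusted p 0.0245) and stood at 2257 ± 579 CPM in WT libraries and 1067 ± 130 CPM in KO libraries. Of all tested genes, 0.182% passed between genotypes in Input and 0.0910% in IP.

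Early-response genes, some of which SRF controls together with ternary complex factors, held all the calls between genotypes in Input among these 4 lists. Of 10 tested, 5 were higher in KO than WT in Input and 0 lower (median 1.98), among them Egr1 (3.23), Nr4a1 (2.88), Junb (2.17) and Ccn1 (2.11), all with edgeR adjusted p of 0.00312 or less. Of all tested genes, 0.182% passed in that comparison. This list, like the others, was chosen with earlier results of these data known, so its 5 of 10 is no independent test against that share. The 12 genes called there dropped to 5 under the stricter filter and to as few as 4 when 1 library was omitted. Which of the 5 early-response calls held in those fits is not reported here. In IP 0 of the 10 passed between genotypes by edgeR, and 0 had an unadjusted p under 0.05. In IP against Input 0 were higher and 2 lower in WT, and 0 were higher and 8 lower in KO (median -2.20), while Srf was higher in IP in both. Of all tested genes, 14.0% passed in WT and 16.4% in KO in either direction, with 572 and 645 of 6596 lower in IP. In the interaction Ccn1 was the only early-response gene to pass (-2.76, edgeR adjusted p 0.0112), beside 0.0910% of all tested genes. Of 12 tested cytoskeletal and smooth muscle targets of SRF, 0 passed between genotypes in either fraction by edgeR, with 2 at an unadjusted p under 0.05 in Input and 1 in IP. In IP against Input 0 were higher and 2 lower in each genotype, with Smtn, the smoothelin gene, at -1.58 and Myl9, a smooth muscle light chain, at -1.64 in WT. The shares over all tested genes are those given above, 14.0% in WT and 16.4% in KO passing in either direction.

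For Mef2a and Mef2d, the members with the highest mean CPM, the tested genes whose log2 levels ran most like theirs over the 12 libraries were looked up among the 1355 and 1356 other genes with a mean of at least 50 counts a library. For Mef2a they were Art3 (Pearson r 0.799), Cat (0.752) and Etfdh (0.735), and for Mef2d Ehd1 (0.937), Cct5 (0.896) and Hsp90aa1 (0.895). These 12 points share library depth and fraction, so the values describe the libraries and carry no test.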

How the data were processed

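Poly(A) RNA of WT and Rpl3l-/- adult mouse hearts, Input and IP, was sequenced as barcoded nanopore direct cDNA on a MinION, per the labels' protocols. The deposited tables hold whole-number read counts per gene for each of 12 libraries, and each unit is that count, not normalized, per the values themselves. The submitters' processing notes name minimap2 2.14, DESeq2 1.34.0 and build GRCm38, with no roles, and the counting rule and its use of strand are not given in the sources used here. Gene names, coordinates and lengths came from GENCODE M21, which 55141 of 55401 IDs matched without version. A total of 38803 IDs had no count in any library.

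Genes passing edgeR's filterByExpr (minimum count 10, minimum total 15) were tested, 6596 in all. All 12 libraries entered 1 quasi-likelihood fit on the 4 groups with TMM scaling (edgeR 4.0.16, limma 3.58.1, R 4.3.3, common dispersion 0.0333). There were 6 contrasts, each with Benjamini-Hochberg adjustment over all genes tested and a threshold of 0.05. The SE is the size of the log2 fold change divided by the square root of F, and 95% intervals are normal ones from it. The length trend is a loess with span 0.5 on the log of the longest transcript. The fit was tested on simulated data. The members and the gene lists were chosen with earlier results of these data known. Named genes are all members, up to 4 per list with the smallest p in a contrast, Rpl3l, genes overlapping a member, and the 3 genes most like each of the 2 members with the highest mean CPM. Values of 1 list gene are not reported here. Alternatives were DESeq2 size factors and test (DESeq2 1.42.0), library totals, no filter, a filter of 30 counts in 3 libraries, limma-voom, fits of the compared libraries only, a replicate block, thinning to 169359 counts, and each library left out. Leaving out both globin-rich libraries, or the globin genes, was added after the data were seen. The labels call the replicates biological, and nothing more is said of their source. The aligned coding sequences are GENCODE's, and promoter windows are RefSeq's.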

Additional observations from a re-analysis of the deposited data

How the results depend on the processing

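Over 1056 alternative values of the 9 tested members in the 6 comparisons, 992 kept their call and size, 28 lost a call, 4 gained one, 32 moved without a call, and none turned a called direction. The count of members that passed in IP against Input in WT was 2, and 1 under the DESeq2 test, after thinning to the smallest library and without the 2 globin-rich libraries, with 1 to 2 when single libraries were left out. In KO the count was 1, and 2 under library totals and with no count filter, with 0 to 2 when single libraries were left out. Over both genotypes it was 3, and 1 under the DESeq2 test, with 1 to 3 when single libraries were left out. The genotype comparisons and the interaction gave 0 members in every alternative. Scaling by library totals put the median gene at 0.10 in WT, 0.15 in KO and 0.13 over both genotypes (log2), in favour of IP, and at 0.12 in favour of KO in IP.

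Fewer or more genes passed overall where the filter or depth changed. KO against WT in Input called 12 genes, but 77 with no filter, 5 with the stricter filter, 7 after thinning and 4 to 17 with a library left out. KO against WT in IP called 6, but 55 with no filter, 11 by DESeq2, 3 without the globin-rich libraries and 2 to 7 with a library left out. The interaction called 6, but 37 with no filter, 1 by limma-voom, 2 after thinning, 1 without the globin-rich libraries and 1 to 8 with a library left out. IP against Input called 926 in WT, but 513 after thinning, 424 without the globin-rich libraries and 601 to 686 with a library left out. It called 1083 in KO, but 648 after thinning, and 1924 over both genotypes, but 1017 after thinning.

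No pairing of libraries by replicate number was seen: same-numbered libraries correlated between -0.19 and 0.13, and in 3 of 18 cases the best match was the library's own number. At these depths counting error can hide a pairing, so the check cannot tell whether libraries share a heart. With the replicate block, the counts of members were 2 in WT, 1 in KO, 3 over both genotypes and 0 in the genotype comparisons and the interaction. The cause of these changes was not tested, apart from the smaller number of counts or libraries that thinning and leaving out libraries bring by construction. Depth limits every member. Mef2a had 27 counts in its lowest library. Each of the other 9 rests on fewer than 20 counts in at least 1 library, from 1 in Hand2 to 16 in Tbx20 at the lowest.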
